A study of Mus musculus with 3 samples.

Results

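The genes described here are 35 genes of the hypoxia response and of glycolysis, followed in the utero-tubular junction of the mouse after mating. They were taken from a fixed list, and a probe belonged to a gene when the array design gave it that gene's name. Probes were found for 34 of the 35 genes, as 61 of the 41174 non-control probes and 34 of the 27670 gene names on the array. The list holds 4 subunits of the hypoxia-inducible factors, 4 genes grouped here as feedback genes and 7 other targets of the factors. It also holds 16 measured glycolytic enzymes and 3 regulators of glycolytic flux. The feedback group is the hydroxylase genes Egln1, Egln2 and Egln3 together with Ankrd37, a target of the factors that is not a hydroxylase. The glycolytic enzyme Gapdh had no probe under its own name. A probe named LOC14433, after the gene number that RefSeq gives Gapdh, had a signal of 0.0385 in normal-mated, 0.0543 in vasectomized-mated and 0.0187 in not mated females on the scale explained below, and it was left out of all counts.

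The utero-tubular junction joins uterus and oviduct, and sperm must cross it to reach the egg. Total RNA came from adult CD-1 females, an outbred stock, all of them in estrus. The 3 groups were females mated with normal males, females mated with vasectomized males, whose ejaculate lacks sperm, and females that were not mated. Each group was 1 pool of 10 females on 1 single-colour Agilent array, labelled with Cy3 after oligo-dT priming. There is therefore no replicate and no test: a difference below compares these arrays, is called at 2-fold, and carries no p-value. The sources used here do not state how long after mating the tissue was taken.

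The 75th percentile of the processed signal was 708 in normal-mated, 295 in vasectomized-mated and 874 in not mated females. Every signal below is the processed signal divided by this percentile of its own array, so it says how a gene stood relative to the other genes of that array. Of the non-control spots, 70.7% were well above background on the normal-mated, 65.9% on the vasectomized-mated and 68.0% on the not mated array, and none was saturated. The median SD of log2 signal between spots of 1 probe was 0.0543, 0.0644 and 0.0573 on the normal-mated, vasectomized-mated and not mated arrays and reflects the array step alone. The median log2 ratio over all genes was -0.05 for normal-mated over not mated and 0.18 for vasectomized-mated over not mated. Scaled to the spike-in probes instead, the same medians were -0.68 and -2.66, so that nearly all genes of the vasectomized-mated array lay lower. Markers of the tissue itself were present on every array, with 6 of 6 markers of oviduct and uterine epithelium and 4 of 4 of smooth muscle well above background throughout.

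As background, the hypoxia-inducible factors are pairs of an oxygen-regulated alpha subunit and the stable partner Arnt. With oxygen, the prolyl hydroxylases Egln1, Egln2 and Egln3 mark the alpha subunits for destruction through Vhl. Without it, the pair binds short DNA motifs and switches on genes of glucose uptake, glycolysis, blood vessel growth and cell survival, and also hydroxylase genes, which closes a feedback loop. Because the alpha subunits are controlled mainly as proteins, their mRNA need not follow their activity. The same targets can be switched on by inflammation and growth signals.

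Promoter windows are shown for 5 members. Of the feedback genes, Egln3 and Ankrd37 were higher after both matings and Egln2 was not. The enzymes Ldha and Tpi1 were both higher after both matings and differ in how often the motif occurs. Each window runs from 250 bases before to 50 bases after the start of the gene, from RefSeq on the mouse build GRCm38.p6, and is written 5′ to 3′ in the direction of the gene. Capitals mark the core of the motif bound by these factors, ACGTG or GCGTG, on either strand, so that CACGT and CACGC are the same cores read from the other strand. The core overlaps the E-box CACGTG, which other factors bind. Overlapping matches on the 2 strands are counted as separate places, so a window can show fewer stretches of capitals than places.
Egln3: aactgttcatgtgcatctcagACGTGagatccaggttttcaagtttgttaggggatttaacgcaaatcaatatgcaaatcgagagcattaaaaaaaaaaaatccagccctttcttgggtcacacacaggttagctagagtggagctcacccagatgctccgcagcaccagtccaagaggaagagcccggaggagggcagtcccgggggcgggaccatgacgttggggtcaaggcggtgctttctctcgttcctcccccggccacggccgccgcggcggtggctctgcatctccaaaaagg
Ankrd37: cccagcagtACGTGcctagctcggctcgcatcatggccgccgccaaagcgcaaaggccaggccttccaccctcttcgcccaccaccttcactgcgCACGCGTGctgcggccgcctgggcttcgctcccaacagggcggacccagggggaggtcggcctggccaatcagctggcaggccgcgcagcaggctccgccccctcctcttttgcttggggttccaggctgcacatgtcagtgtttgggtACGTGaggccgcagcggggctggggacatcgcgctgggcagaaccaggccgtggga
Egln2: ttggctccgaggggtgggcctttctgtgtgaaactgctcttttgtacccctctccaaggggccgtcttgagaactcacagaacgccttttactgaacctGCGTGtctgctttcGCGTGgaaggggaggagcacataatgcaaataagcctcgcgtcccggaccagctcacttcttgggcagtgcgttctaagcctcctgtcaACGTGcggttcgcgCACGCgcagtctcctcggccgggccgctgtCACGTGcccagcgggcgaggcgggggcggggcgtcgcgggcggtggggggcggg
Ldha: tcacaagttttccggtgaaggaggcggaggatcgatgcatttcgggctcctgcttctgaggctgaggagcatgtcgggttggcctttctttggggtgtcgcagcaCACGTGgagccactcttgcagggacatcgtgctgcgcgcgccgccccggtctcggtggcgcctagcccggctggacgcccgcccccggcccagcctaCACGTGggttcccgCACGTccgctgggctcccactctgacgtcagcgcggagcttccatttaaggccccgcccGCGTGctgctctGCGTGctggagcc
Tpi1: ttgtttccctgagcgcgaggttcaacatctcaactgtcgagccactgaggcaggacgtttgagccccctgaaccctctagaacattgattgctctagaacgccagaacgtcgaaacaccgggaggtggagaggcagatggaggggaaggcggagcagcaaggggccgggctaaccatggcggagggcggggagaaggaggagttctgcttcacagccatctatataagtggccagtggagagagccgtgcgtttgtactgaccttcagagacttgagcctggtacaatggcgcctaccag
The Egln3 window (chr12:54203825-54204124, minus strand) belongs to the gene with the largest ratio of the 34 after normal mating and holds the core at 1 place. In the Ankrd37 window (chr8:45999801-46000100, minus strand), the second feedback gene that was higher after mating, the core stands at 4 places. The Egln2 window (chr7:27166753-27167052, minus strand) holds it at 6 places, although Egln2 stayed within 2-fold in both matings. Among the enzymes, the Ldha window (chr7:46845554-46845853, plus strand) holds it at 7 places. In the Ankrd37, Egln2 and Ldha windows some of these places overlap. The Tpi1 window (chr6:124814109-124814408, minus strand) holds it at 0 places, although Tpi1 was higher after both matings. Of the 33 members with a window, Gapdh among them, 26 or 78.8% held the core, against 43.8% of 27025 windows of all genes. The median GC content was 63.7% for the members and 52.7% for all genes. Among the 6873 windows of all genes with a GC content between the quartiles of the members, 56.7% and 67.3%, the core was in 63.4%. By role, 4 of 4 feedback genes, 5 of 6 other targets and 11 of 17 glycolytic enzymes held it. So did 3 of 3 subunits and 3 of 3 regulators of flux. By response, 9 of 11 members higher after both matings and 8 of 9 within 2-fold after both held it. A match is a description of these letters and not evidence of binding.

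Hypoxia response and glycolysis genes were higher together after the normal mating: 19 of 34 members were at least 2-fold higher than in not mated females and 0 were at least 2-fold lower. Among all 19312 genes compared, 9.82% were higher and 13.2% lower. The median log2 ratio of the members was 1.14, against -0.05 for all genes. The 19 comprised 2 of 4 feedback genes, 6 of 7 other targets and 11 of 16 glycolytic enzymes. None of the 4 subunits and none of the 3 regulators of flux reached 2-fold. Scaled to spike-in probes, 8 members were higher and 5 lower in this comparison, where 950 and 6195 of 18912 genes were.

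After mating with vasectomized males the picture was mixed. Relative to the 75th percentile of the array, 15 of 34 members were at least 2-fold higher than in not mated females and 4 at least 2-fold lower, where 25.8% and 16.5% of 19317 genes were. The share of lower members, 11.8%, was near that background. The median over members was 0.70, against 0.18 over all genes. Of the 15, 2 were feedback genes, 5 other targets, 6 glycolytic enzymes and 2 regulators. Scaled to spike-in probes, 2 members, Egln3 and Ankrd37, remained at least 2-fold higher, and 26 were lower. Of 18672 genes compared under that scaling, 196 were higher and 16686 lower. Both matings are compared with the same not mated array, so their ratios are not independent of each other.

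**Figure D1:**
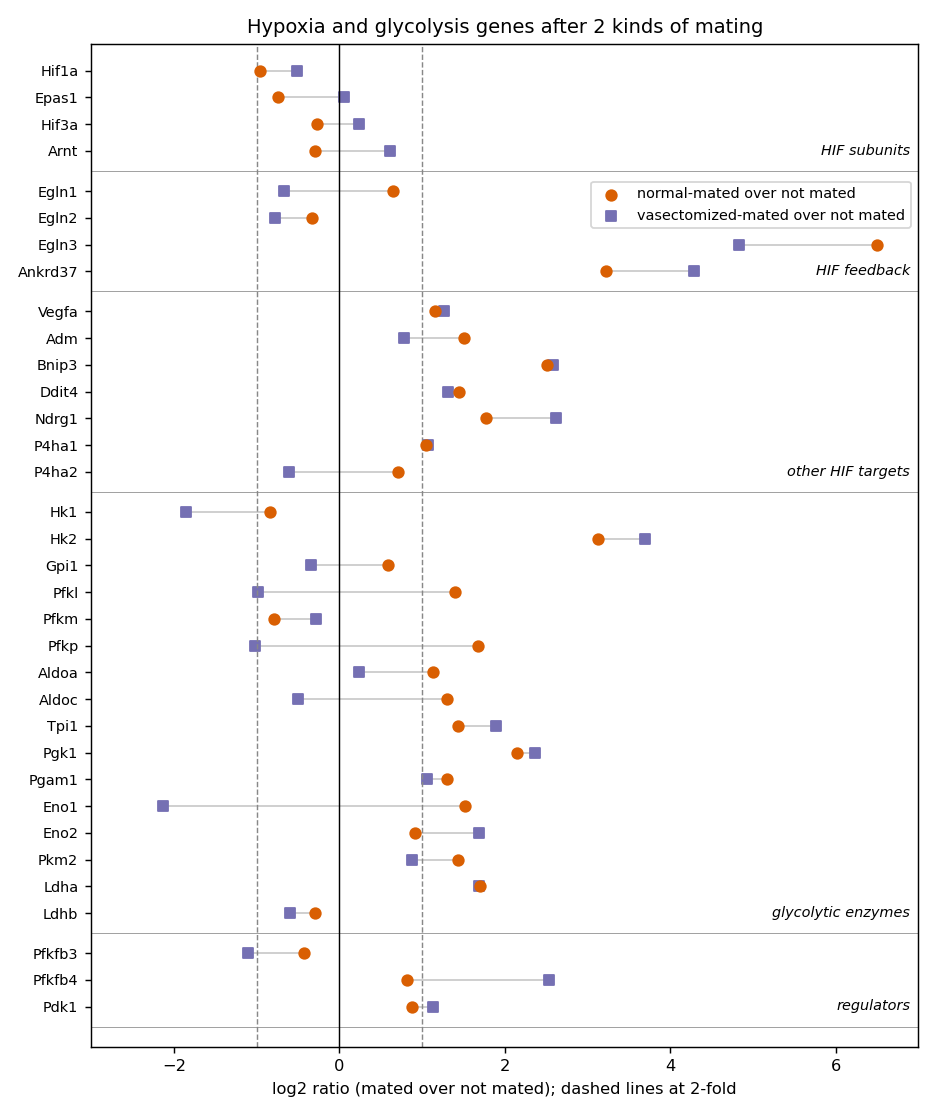
Log2 ratio of each of the 34 measured genes (vertical axis, grouped by role) in normal-mated over not mated females (circles) and in vasectomized-mated over not mated females (squares), 1 array per group, with dashed lines at 2-fold. Egln3 stands farthest right at 6.50 and 4.83, the subunits lie within 2-fold, and the widest gap between the matings is that of Eno1 at 1.52 and -2.13; scaled to spike-in probes, all vasectomized-mated ratios other than those of Egln3, Ankrd37 and Hk2 fall below 0.

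The feedback genes divided. Egln3, the hydroxylase gene most responsive to low oxygen in many cells, had a signal of 21.2 in normal-mated, 6.66 in vasectomized-mated and 0.234 in not mated females. It was 90.4-fold higher in normal-mated and 28.4-fold higher in vasectomized-mated than in not mated females, from a signal well above background on each array. Its single probe lies at chr12:52198570-52198629 on the minus strand of mm7, the build of the array grid, and annotation of that build was not used here, so the exon is not named. Ankrd37, an ankyrin repeat gene known as a direct target of these factors, had a signal of 8.15 in normal-mated, 17.1 in vasectomized-mated and 0.876 in not mated females. That is 9.30-fold higher in normal-mated and 19.5-fold higher in vasectomized-mated females. Its probe lies at chr8:44774913-44774972 on the minus strand of mm7. Between the 2 matings the order of these genes was opposite, with Egln3 3.18-fold higher in normal-mated than in vasectomized-mated females and Ankrd37 lower, at a log2 ratio of -1.07 that scaling to spike-in probes turned to 1.09.

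Egln1 and Egln2, the other hydroxylases of the alpha subunits, had no such rise. Egln1, the main oxygen sensor in most tissues, had a signal of 3.49 in normal-mated, 1.40 in vasectomized-mated and 2.23 in not mated females. The normal-mated value was the highest and the vasectomized-mated value the lowest, and both ratios to not mated females were within 2-fold, at 0.65 and -0.67. A second Egln1 probe nearer the 3′ end gave 0.35 for the normal mating and -2.51 for the vasectomized mating. Egln2, a mostly nuclear hydroxylase, had a signal of 5.45 in normal-mated, 3.99 in vasectomized-mated and 6.83 in not mated females, and it was highest without mating. The Egln1 ratio of normal-mated over vasectomized-mated females was 1.32, a 2.49-fold difference that kept its side of 2-fold in all 12 ways of processing.

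By their chosen probes, the subunits themselves stayed within 2-fold. Hif1a, the alpha subunit found in most cells, had a signal of 2.16 in normal-mated, 2.94 in vasectomized-mated and 4.19 in not mated females, the lowest value after normal mating. Its ratios were -0.95 and -0.51, and in 4 of 12 ways of processing the first passed 2-fold lower. Epas1, the alpha subunit typical of endothelium, had a signal of 0.681 in normal-mated, 1.19 in vasectomized-mated and 1.14 in not mated females. The vasectomized-mated and not mated values lay close together and the normal-mated value below them. Arnt, the shared partner, had a signal of 0.641 in normal-mated, 1.21 in vasectomized-mated and 0.786 in not mated females. Its 4 probes ranged from -1.15 to 0.42 for the normal mating, so no direction holds for Arnt. Hif3a, whose products can dampen the other alpha subunits, had a dim signal of 0.0404 in normal-mated, 0.0577 in vasectomized-mated and 0.0489 in not mated females. Its second probe passed 2-fold lower in both matings, at -2.25 and -1.07, so the chosen probe does not settle Hif3a. The median of the 4 subunits was -0.52 after normal and 0.15 after vasectomized mating.

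**Figure D2:**
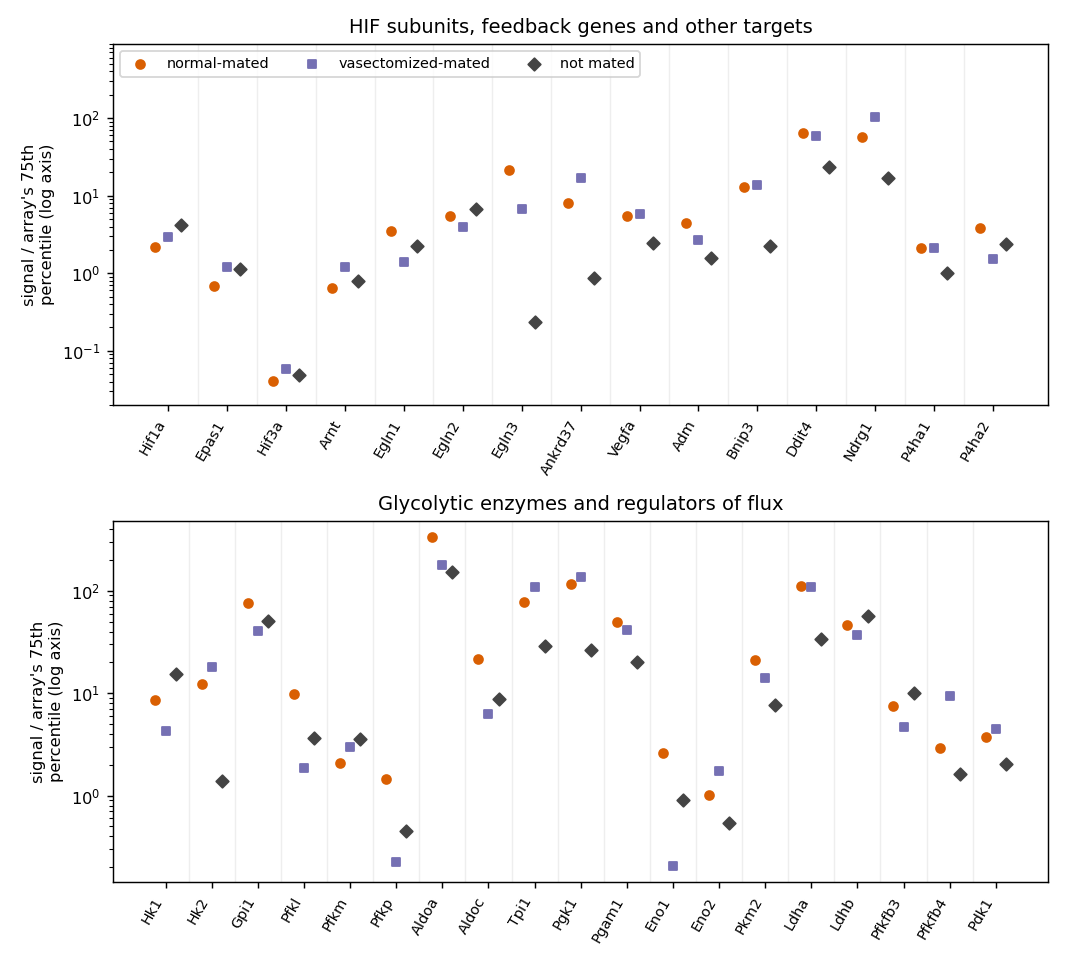
Signal of each measured gene on the normal-mated (circles), vasectomized-mated (squares) and not mated (diamonds) arrays, as processed signal over the 75th percentile of the array, on a log axis, with 1 pool of 10 females per array. The not mated diamond lies far below both matings for Egln3, Ankrd37, Bnip3, Hk2 and Pgk1, and the vasectomized-mated square lies lowest for Pfkl, Pfkp and Eno1; levels of different genes come from different probes and are not comparable with each other.

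The other targets were mostly higher after both matings. Bnip3, a mitochondrial protein of mitophagy and cell death, had a signal of 13.0 in normal-mated, 13.6 in vasectomized-mated and 2.28 in not mated females, 5.69-fold and 5.98-fold above not mated females. Ndrg1, a stress-induced gene of differentiation, had a signal of 57.1 in normal-mated, 102 in vasectomized-mated and 16.7 in not mated females. Ndrg1 thus had log2 ratios of 1.78 and 2.61. Ddit4, an inhibitor of mTOR signalling, had a signal of 64.1 in normal-mated, 58.7 in vasectomized-mated and 23.6 in not mated females, with ratios of 1.44 and 1.32. The mated values lay near each other for Bnip3 and Ddit4, the vasectomized-mated value was 1.79-fold above the normal-mated one for Ndrg1, and the not mated value was below both for each of them.

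Vegfa, the main growth factor of blood vessels, had a signal of 5.44 in normal-mated, 5.86 in vasectomized-mated and 2.44 in not mated females. Its chosen probe gave ratios of 1.16 and 1.26, but the vasectomized ratio held for this probe only: the other 2 Vegfa probes gave 0.23 and -0.24, against 1.42 and 1.46 after normal mating. P4ha1, a subunit of the collagen prolyl hydroxylase, had a signal of 2.09 in normal-mated, 2.12 in vasectomized-mated and 1.01 in not mated females. Its chosen probe was just past 2-fold in both matings at 1.05 and 1.07, and its second probe gave 1.40 and 0.69. P4ha2, which codes for an alternative subunit of the same enzyme, had 3.85 in normal-mated, 1.54 in vasectomized-mated and 2.36 in not mated females. Its normal-mated value was 2.49-fold above the vasectomized-mated one, with both within 2-fold of not mated females. Adm, the vasodilator adrenomedullin, had a signal of 4.40 in normal-mated, 2.67 in vasectomized-mated and 1.56 in not mated females, 2.83-fold higher after normal mating and within 2-fold after vasectomized mating at 0.78. Whether the 2 matings differ for Adm was not tested, and the ratio between them was 0.72.

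The glycolytic enzymes were the larger group, and their counts against not mated females differed between the matings. After normal mating 11 of 16 were at least 2-fold higher, 0 lower, and the median was 1.35. After vasectomized mating 6 were higher and 3 lower, and the median was -0.03, with 8 of 16 above 0. The 18.8% of enzymes lower there are near the 16.5% of all genes, while the 37.5% higher stand beside 25.8%. Set against them, the feedback genes had a median of 1.93 after normal and 1.81 after vasectomized mating. The gap between the feedback and the glycolytic median was therefore 0.58 after normal and 1.84 after vasectomized mating. The feedback median is that of 4 genes, 2 of them strongly higher, and it lies between those 2 and the others. Of the hydroxylases alone, Egln1 stood in the middle at 0.65 and -0.67, below the glycolytic medians. The higher feedback median thus rests on counting Ankrd37 in that group. The glycolytic median after vasectomized mating also depended on the probe: with the probe nearest the 3′ end for each gene, an option added after the data were seen, it was 0.97.

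**Figure D3:**
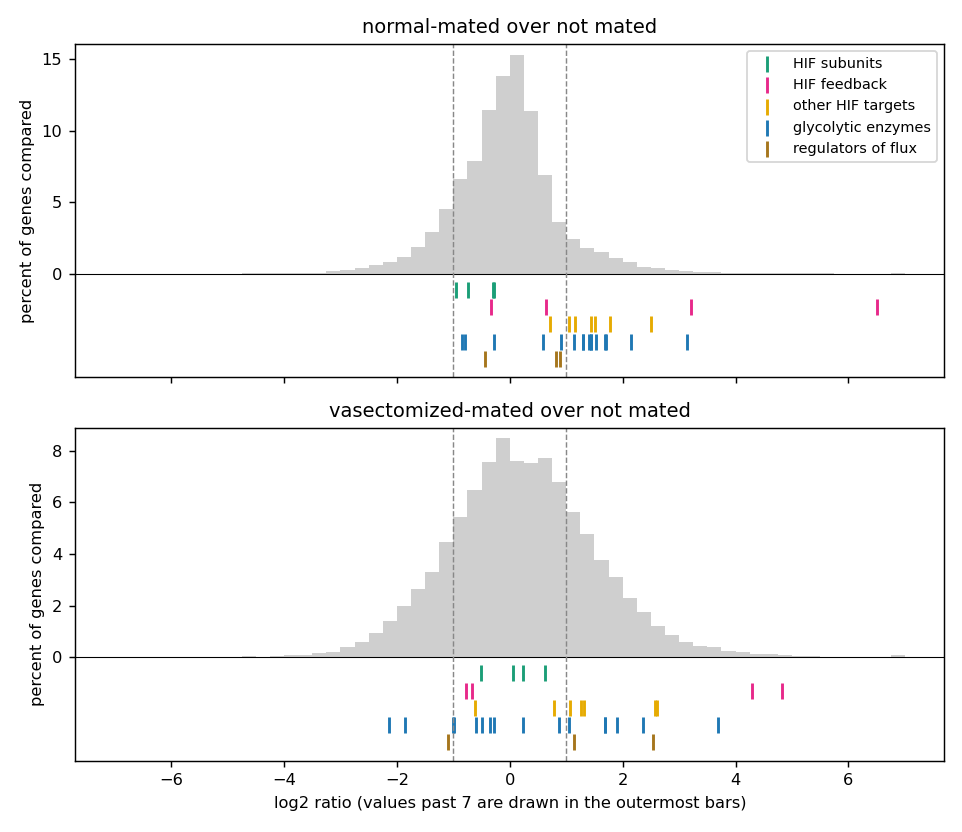
Distribution of log2 ratios over all genes compared (grey bars, percent of genes) for normal-mated over not mated females (upper) and vasectomized-mated over not mated females (lower), with the members as ticks by role below each and dashed lines at 2-fold. The glycolytic ticks lie mostly right of the grey bulk in the upper plot (median 1.35 against -0.05) and spread over it in the lower plot (median -0.03 against 0.18); the ratios are relative to the 75th percentile of each array, and scaled to spike-in probes the all-gene medians would be -0.68 and -2.66.

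The pathway opens with the hexokinases, which trap glucose in the cell. Hk2, the inducible hexokinase, had a signal of 12.2 in normal-mated, 18.0 in vasectomized-mated and 1.39 in not mated females, 8.76-fold and 12.9-fold above not mated females. Hk1, the isoform found in most tissues, went the other way, with 8.58 in normal-mated, 4.26 in vasectomized-mated and 15.4 in not mated females. It fell by 1.85 on the log2 scale after vasectomized mating, in all 12 ways of processing, and had a ratio of -0.84 after normal mating. The 2 isoforms were measured by different probes, so their levels cannot be ranked. Gpi1, the glucose phosphate isomerase, had a signal of 76.6 ± 2.21 in normal-mated, 40.3 ± 1.92 in vasectomized-mated and 51.2 ± 1.42 in not mated females (SD over 10 spots of 1 array), within 2-fold of not mated females in both. The 3 spot ranges did not overlap, but spots of 1 array say nothing about animals.

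The phosphofructokinases, which commit sugar to glycolysis, differed by isoform and by mating. Pfkl, the liver-type subunit, had a signal of 9.77 in normal-mated, 1.86 in vasectomized-mated and 3.69 in not mated females. It was 2.64-fold higher after normal mating and had a ratio of -0.99 after vasectomized mating, a 5.24-fold difference between the matings. Pfkp, the platelet-type subunit, had a signal of 1.46 in normal-mated, 0.225 in vasectomized-mated and 0.455 in not mated females, with ratios of 1.68 and -1.01. This direction belonged to 1 of 3 probes. The probe nearest the 3′ end gave -0.12 and 2.54, and the third probe 0.87 and 2.19, so that the call for Pfkp after vasectomized mating turns round with the probe. Pfkm, the muscle-type subunit, had a signal of 2.08 in normal-mated, 2.96 in vasectomized-mated and 3.61 in not mated females, highest without mating and within 2-fold throughout.

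Of the aldolases, which split the sugar, Aldoa, the muscle-type isoform, had a signal of 332 in normal-mated, 179 in vasectomized-mated and 152 in not mated females. It was 2.19-fold higher after normal mating and at 0.23 after vasectomized mating. Aldoc, the isoform known from brain, had a signal of 21.6 in normal-mated, 6.22 in vasectomized-mated and 8.76 in not mated females. Both Aldoc probes gave 1.30 after normal mating, but after vasectomized mating the chosen probe gave -0.50 and the other was past 2-fold higher. Tpi1, which interconverts the triose phosphates, had a signal of 78.4 in normal-mated, 108 in vasectomized-mated and 29.1 in not mated females, with ratios of 1.43 and 1.90.

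Lower in the pathway, Pgk1 makes the first ATP. It had a signal of 118 ± 3.01 in normal-mated, 136 ± 4.35 in vasectomized-mated and 26.5 ± 0.509 in not mated females (SD over 10 spots of 1 array). The ratios were 2.15 and 2.36, and a second probe, whose target overlaps that of the first, gave 2.13 and 2.44. Pgam1, the phosphoglycerate mutase, had a signal of 49.4 in normal-mated, 41.8 in vasectomized-mated and 20.1 in not mated females. Its ratios of 1.30 and 1.06 were both past 2-fold.

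Eno1, the enolase of most tissues, behaved unlike its neighbours. It had a signal of 2.60 in normal-mated, 0.207 in vasectomized-mated and 0.908 in not mated females, the widest gap between the matings of all 34 genes at 12.6-fold. It was 2.86-fold higher after normal mating and fell by 2.13 on the log2 scale after vasectomized mating, the fall holding under all 12 ways of processing. Its single probe is placed on chr4:149233567-149233792, plus strand, mm7, so the choice of probe could not change its ratios. Eno2, the enolase of neurons, had a signal of 1.01 in normal-mated, 1.73 in vasectomized-mated and 0.539 in not mated females, at 0.91 and 1.68.

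The last steps produce pyruvate and lactate. Pkm2 (now Pkm), the pyruvate kinase of muscle and proliferating cells, had a signal of 20.9 in normal-mated, 14.2 in vasectomized-mated and 7.72 in not mated females. Its chosen probe stood at 1.44 and 0.88, and its second probe at 1.36 and -0.14. Ldha, the lactate dehydrogenase subunit that favours lactate, had a signal of 110 in normal-mated, 110 in vasectomized-mated and 33.9 in not mated females. The mated values differed by a log2 ratio of 0.01, and both were above not mated females at 1.70 and 1.69. Ldhb, the subunit typical of oxidative tissue, had a signal of 46.0 in normal-mated, 37.3 in vasectomized-mated and 56.1 in not mated females, highest without mating and within 2-fold. Hk2 against Hk1 and Ldha against Ldhb thus held ratios of opposite sign in each mating when set relative to the 75th percentile of the array, although scaled to spike-in probes Ldha also lay below 0 after vasectomized mating, at -1.07.

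Of the regulators of flux, Pfkfb4, a bifunctional enzyme that sets fructose 2,6-bisphosphate, had a signal of 2.89 in normal-mated, 9.45 in vasectomized-mated and 1.64 in not mated females. It was 5.77-fold higher after vasectomized mating and at 0.82 after normal mating, and it was 3.27-fold higher in vasectomized-mated than in normal-mated females. Pfkfb3, the isoform with the stronger kinase activity, had a signal of 7.50 in normal-mated, 4.71 in vasectomized-mated and 10.1 in not mated females. Its 3 probes did not give 1 direction, with -0.43, 0.52 and 0.46 after normal and -1.10, -2.17 and 0.46 after vasectomized mating. Pdk1, which shuts off entry of pyruvate into the mitochondrial cycle, had a signal of 3.76 in normal-mated, 4.49 in vasectomized-mated and 2.04 in not mated females, at 0.88 and 1.14.

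Directly between the 2 matings, 8 of 34 members were at least 2-fold higher in normal-mated than in vasectomized-mated females and 2 were lower. Among all 18998 genes compared, 14.7% were higher and 28.0% lower, and the median was -0.27, against 0.07 for the members. The 8 were Egln1, Egln3, P4ha2 and the glycolytic genes Hk1, Pfkl, Pfkp, Aldoc and Eno1. The 2 lower genes were Ankrd37 and Pfkfb4. Scaled to spike-in probes, 33 of 34 members were at least 2-fold higher in normal-mated females, as were most genes, and 0 were lower. Over the 2 matings together, 12 members were higher than not mated in both, which 5.75% of all genes were, and 5 were higher after normal mating and within 2-fold after vasectomized mating, which 3.59% were. The reverse held for 3 members and for 17.9% of genes. Only Eno1 and Pfkp were higher after one mating and lower after the other in that direction, a pattern of 0.342% of genes, and the remaining 12 members were within 2-fold after normal mating and not higher after vasectomized mating.

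Probes of the same gene were less alike after vasectomized mating. Over all genes with several probes, the median SD between probes of a gene was 0.208 for the normal and 0.654 for the vasectomized ratio, and 11.9% and 51.9% of those genes had probes over 2-fold apart. Among members, 4 of 17 had probes over 2-fold apart after normal mating and 9 of 16 after vasectomized mating. These member counts also include ratios with only 1 array well above background, which the all-gene shares leave out. Gpi1 is among the 4 only through such a ratio, at -1.04 against 0.58. In 15 of 17 pairs of member probes, from 13 genes and up to 10000 bases apart, the upstream probe had the lower vasectomized ratio. The median difference to the probe nearest the 3′ end was -0.40. Over all genes the upstream probe was lower in 62.0% of 5580 such pairs, with a median of -0.27. That share fell with distance, from 68.6% within 500 bases to 63.3% up to 2000 and 58.1% up to 10000. The medians in these steps were -0.17, -0.39 and -0.28. For the normal ratio the upstream probe was lower in 6 of 18 member pairs, with a median of 0.28. Over all genes it was lower in 45.1% of 6102 pairs, with a median of 0.04. Hk1 shows lower upstream ratios after vasectomized mating over 3 probes lying 0, 819 and 2461 bases from the most 3′ probe. They gave -1.85, -3.66 and -3.94 after vasectomized mating and -0.84, -0.99 and -0.78 after normal mating. Egln1 and Pdk1 went the other way. The RNA was primed with oligo-dT from the 3′ end, and the part of RNA length in the vasectomized ratios of the members was not tested; 16 of the 34, among them Egln3, Ankrd37, Hk2, Pfkl, Tpi1 and Eno1, have 1 probe only.

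**Figure D4:**
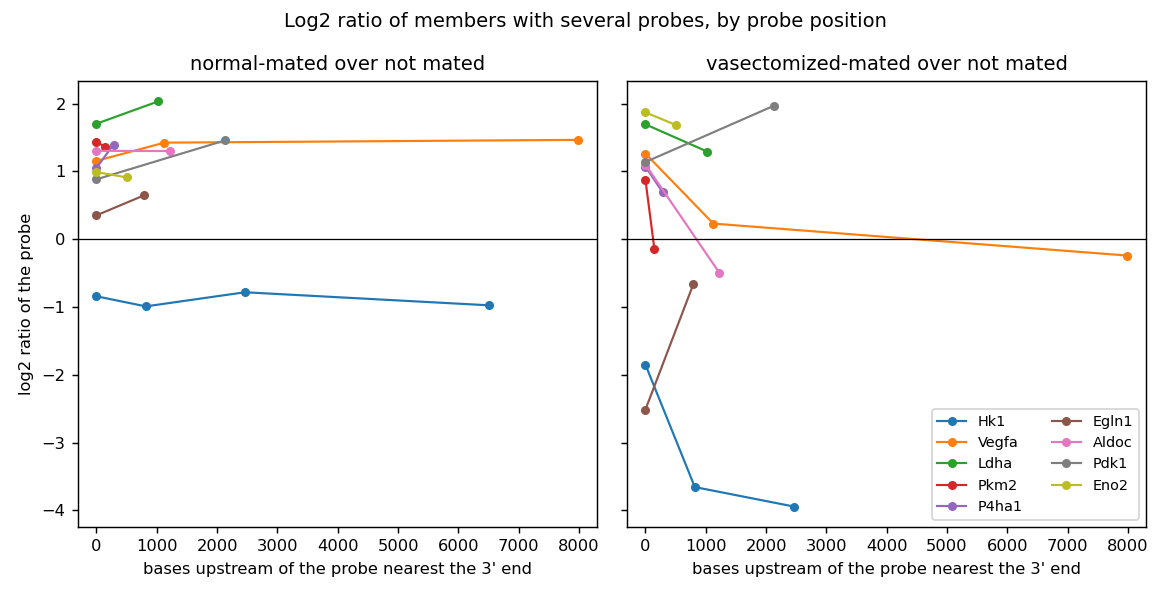
Log2 ratio of single probes of 9 members with several probes (vertical axis) against the distance in bases upstream of the probe nearest the 3′ end of the same gene (horizontal axis, mm7, up to 10000 bases), for normal-mated over not mated females (left) and vasectomized-mated over not mated females (right). The drawn lines are flatter on the left and mostly slope down on the right. Vegfa stands at 1.16, 1.42 and 1.46 on the left and 1.26, 0.23 and -0.24 on the right. Egln1 and Pdk1 slope up on the right. Other members with several probes are not drawn, among them Arnt and Pfkp, whose normal ratios were -0.12, 1.68 and 0.87 for Pfkp.

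Genes of the same pathway outside the list were read for comparison. Of 27 further targets of the hypoxia-inducible factors compared, 13 were higher and 1 lower after normal mating, and 14 were higher and 4 lower after vasectomized mating. The all-gene shares are 9.82% higher and 13.2% lower after normal and 25.8% higher and 16.5% lower after vasectomized mating, so the 4 lower genes are near the background. Slc16a3, the transporter that exports lactate, had a signal of 23.3 in normal-mated, 19.5 in vasectomized-mated and 0.947 in not mated females, at 4.62 and 4.36. Car9, a carbonic anhydrase that is a common marker of hypoxic cells, had a signal of 2.32 in normal-mated, 0.459 in vasectomized-mated and 0.110 in not mated females. Slc2a1, the basal glucose transporter, had a signal of 27.3 in normal-mated, 25.5 in vasectomized-mated and 13.6 in not mated females, at 1.01 and 0.91. Slc2a3, another glucose transporter of that list and named after its values were seen, went the other way at -2.27 and -3.36. Over its probes the normal ratio ran from -2.27 to -1.88 and the vasectomized ratio from -3.36 to -0.51. Its lower call after vasectomized mating thus depends on the probe. Angptl4, a regulator of lipoprotein lipase, stood at -0.33 and 2.08. Of 8 further regulators of the factors, 0 were higher and 1 lower after normal mating, and 1 was higher and 2 lower after vasectomized mating. Vhl, the subunit that recognises hydroxylated factors, was at 0.69 and 2.17, and Hif1an, which blocks their coactivator binding, at -0.06 and -1.60. Over the Hif1an probes the vasectomized ratio ran from -1.60 to 0.31, so its lower call depends on the probe.

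Of further genes of glycolysis and neighbouring steps, 4 of 20 were higher and 2 lower after normal mating, where 9.82% and 13.2% of all genes were. After vasectomized mating 4 of 21 were higher and 3 lower, where 25.8% and 16.5% of all genes were. Their medians were 0.01 and 0.32, against -0.05 and 0.18 over all genes. Pck1, an enzyme of gluconeogenesis, had a signal of 0.472 in normal-mated, 0.132 in vasectomized-mated and 2.75 in not mated females, with ratios of -2.54 and -4.38. Fbp1, another enzyme of gluconeogenesis, was higher at 1.44 and 2.30. Of 6 germ cell isoforms of such enzymes, Pgk2, Pdha2 and Aldoart1 were not well above background on any array. Among those compared, 2 of 3 were higher after normal mating and 0 of 2 after vasectomized mating, with Ldhc, the lactate dehydrogenase of testis, at 1.99 and 0.80.

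Markers of other cell types were read as well, and their directions differed. Of all genes, 9.82% were higher and 13.2% lower after normal mating, and 25.8% and 16.5% after vasectomized mating. Among neutrophil markers, 8 of the 9 compared were at least 2-fold higher after each mating. The 8 were not the same genes: Ltf stood at 1.225 and -0.73, and Mpo at 0.60 and 3.69. Ngp was not well above background on any array. Summed without Ltf, which the epithelium also makes, the neutrophil markers came to 60.6 in normal-mated, 89.6 in vasectomized-mated and 0.512 in not mated females. These sums run over different probes and are mostly 1 bright gene, here S100a9 at 55.7 in normal-mated, 83.2 in vasectomized-mated and 0.112 in not mated females. Endothelium was read from 6 markers, of which 6 fell past 2-fold after normal mating, and 4 were lower and 1 higher after vasectomized mating. Their summed signal was 3.30 in normal-mated, 16.5 in vasectomized-mated and 10.4 in not mated females. Cdh5, the 1 higher marker, made up 12.5 of the sum in vasectomized-mated females. The 2 Cdh5 probes gave vasectomized ratios of -2.67 and 2.44, so that call held for 1 probe only. Macrophage markers came to 7.80 in normal-mated, 25.0 in vasectomized-mated and 3.79 in not mated females, with 1 of 5 higher and 1 lower after normal mating and 2 higher after vasectomized mating. Emr1 made up 20.4 of the vasectomized-mated sum and Cd68 made up 5.21 of the normal-mated sum. Red blood cell markers came to 36.4 in normal-mated, 38.2 in vasectomized-mated and 27.9 in not mated females, with 0 of 3 called, and were nearly all Hba-a1. Epithelial markers had a median log2 ratio of 0.72 after normal mating, with 3 of 6 higher, and of -0.29 after vasectomized mating, with 1 higher and 1 lower. Between the matings their median was 1.01, with 3 of 6 higher in normal-mated females, where 14.7% of all genes were. Smooth muscle markers had medians of -1.02 and -0.78, with 2 of 4 lower after each mating and 1 higher after vasectomized mating. Of 6 sperm and spermatid markers, 4 were well above background in normal-mated, 4 in vasectomized-mated and 3 in not mated females, with 0 of 4 called after normal mating and 1 higher after vasectomized mating. The sperm tail markers Akap4 and Odf1 were not well above background on any array. In whole tissue, more cells of a type cannot be told apart from more RNA per cell, and the part of neutrophils, epithelium and other cells in the ratios of Hk2, Egln3, Bnip3, Ldha and the other members was not tested.

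The medians by role were also read under other scalings, background corrections, filters and choices of probe. Relative to the median of all genes, the feedback median lay between 1.82 and 2.17 over 12 ways of processing after normal mating and between 1.17 and 1.70 after vasectomized mating. For the glycolytic enzymes the ranges were 1.11 to 1.59 and -0.75 to 0.80, so that their sign after vasectomized mating was not fixed. The other targets ranged from 1.14 to 1.68 and from 0.55 to 1.15. The feedback median did not hold for each gene of its group. As ratios to not mated females, Egln2 ran from -0.93 to -0.13 after normal and from -3.54 to -0.69 after vasectomized mating. Egln1 ran from 0.04 to 0.85 and from -3.44 to -0.58. The settings for flagged spots and dim probes could not move the value of any member. The choice of probe could not move a member with 1 probe. Members at least 2-fold higher under all 12 were Egln3, Ankrd37, Bnip3, Ndrg1, Hk2, Pgk1 and Ldha after normal mating, and Egln3 and Ankrd37 after vasectomized mating.

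**Figure D5:**
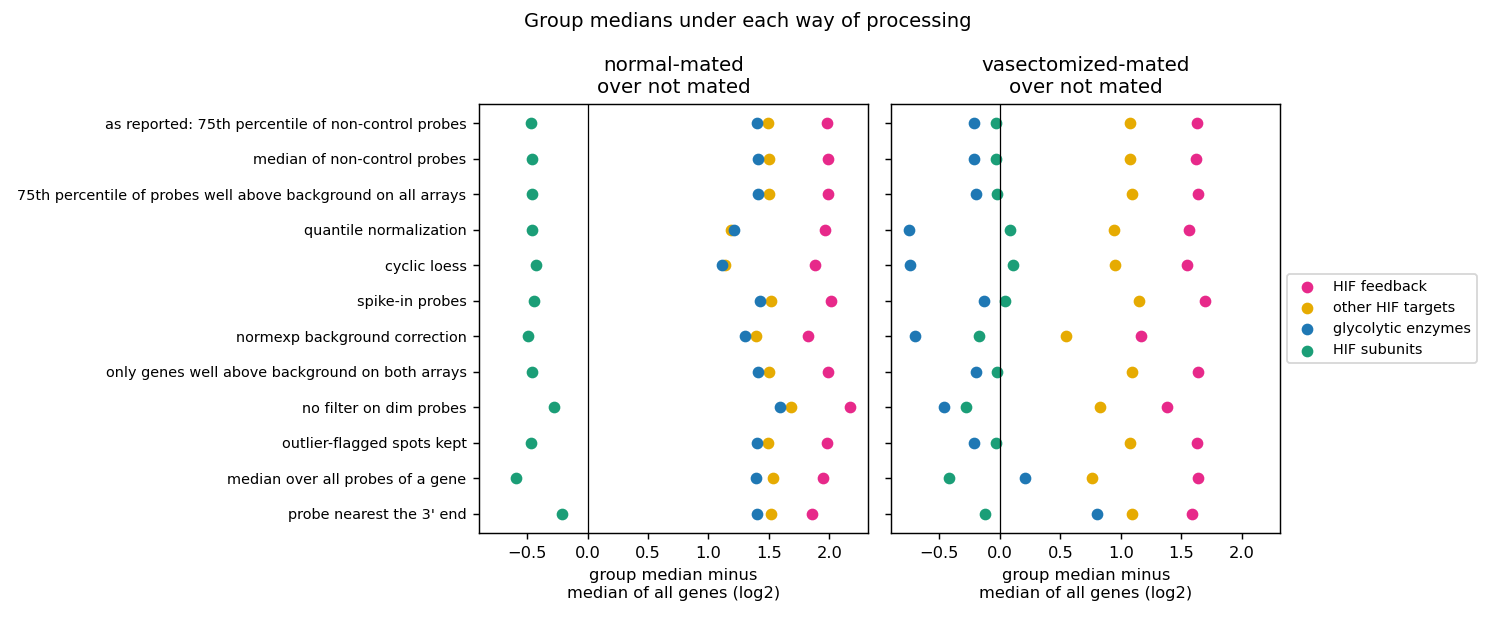
Median log2 ratio of 4 roles minus the median of all genes (horizontal axis) under 12 ways of processing (vertical axis), for normal-mated over not mated females (left) and vasectomized-mated over not mated females (right). The feedback median lies rightmost in every line, from 1.82 to 2.17 on the left and from 1.17 to 1.70 on the right. It is a midpoint of 4 genes, of which Egln3 and Ankrd37 were higher and Egln1 and Egln2 were within 2-fold as reported. The glycolytic enzymes keep to 1.11 to 1.59 on the left and cross 0 on the right, from -0.75 to 0.80.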

How the data were processed

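The deposited intensity values are processed signals of Agilent Feature Extraction, on a linear scale and background-corrected within each array, per the file headers, which give version 10.5.1.1. Version 9.5.3 stands in the submitters' processing notes. From these deposited intensities, log2 values were computed as log2 of the processed signal minus log2 of the array's 75th percentile over probes that are not controls, with R 4.3.3, the package data.table (version 1.17.8) and limma 3.58.1. Tables and figures used Python 3.11.15, pandas 2.3.3, numpy 2.4.6 and matplotlib 3.10.9. Spots with outlier flags were left out and spots of a probe averaged. Probes were named through RefSeq (GRCm38.p6): 22951 by accession, 6659 by symbol and 3109 by synonym, while 8455 kept the file's name. A gene takes its brightest probe, and probes well above background on any array come first. A ratio with 1 array below background is a bound, and the chosen probe of no member gave one. Cross-hybridisation was not analysed here. Calls are at 2-fold, and the calling step was checked on simulated data. Precision is limited by having 1 array per group. The members, the gene lists and the rule for named genes, which names every member and a fixed set from the other lists, were chosen with earlier results of these data known. Alternatives covered scaling, background correction, filters and the choice of probe. Some genes of that set from the other lists are not reported here.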

Additional observations from a re-analysis of the deposited data

Results flagged for a closer look

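Eno1 and Pfkp lay on opposite sides of not mated females in the 2 matings. The log2 ratio of Eno1 was 1.52 in normal-mated and -2.13 in vasectomized-mated females. That of Pfkp was 1.68 in normal-mated and -1.01 in vasectomized-mated females. With 1 array per group the difference between the matings was not tested. Eno1 has 1 probe, and the other probes of Pfkp gave positive vasectomized-mated ratios of 2.54 and 2.19.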

How the results depend on the processing

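No paired analysis was possible because each group has 1 array, and for the same reason no array could be left out. The limits are the single pool per group, a vasectomized-mated array with the lowest 75th percentile of signal, probes that differ within a gene, and unknown cross-hybridisation. Over 12 ways of processing, single members had 374 alternative values in each comparison. Of these, 344 kept the call of higher, lower or within 2-fold for normal-mated over not mated. The count was 309 for vasectomized-mated over not mated and 328 between the matings. A value that stayed within 2-fold counted as kept whatever its sign. Some of these alternative values could not change. No member spot had an outlier flag, and the chosen probes of all 34 members were well above background on all arrays. The settings for flagged spots and for dim probes therefore returned the values as reported. For the 16 members with 1 probe, the choice of probe did so too. The cause of the differences below was not tested.

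Scaling to spike-in probes changed most. For normal-mated over not mated it gave 8 members higher and 5 lower, a feedback median of 1.33 and a glycolytic median of 0.75. For vasectomized-mated over not mated it gave 2 higher and 26 lower, and medians of -0.96 for feedback genes, -2.79 for glycolytic enzymes, -1.51 for other targets and -1.63 for regulators. Members past 2-fold as reported whose ratios turned negative there were Vegfa -1.51, Bnip3 -0.19, Ddit4 -1.45, Ndrg1 -0.15, P4ha1 -1.70, Tpi1 -0.87, Pgk1 -0.41, Pgam1 -1.71, Eno2 -1.08, Ldha -1.07, Pfkfb4 -0.24 and Pdk1 -1.63. For normal-mated over vasectomized-mated it gave 33 higher and 0 lower, medians of 3.05 for feedback genes and 2.59 for glycolytic enzymes, and turned Ankrd37 to 1.09 and Pfkfb4 to 0.45. Over all genes it gave 950 higher and 6195 lower after normal mating, 196 and 16686 after vasectomized mating, and 15318 and 256 between the matings, against 1896 and 2553, 4992 and 3195, and 2792 and 5317 as reported.

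The other settings moved less. For normal-mated over not mated the count of lower members became 1 with the percentile taken over probes well above background on all arrays, 2 with quantile normalization and 1 with the median over all probes, and the glycolytic median became 1.11 with cyclic loess. For vasectomized-mated over not mated the count of lower members became 7 with quantile normalization and 7 with cyclic loess, and the glycolytic median became -0.69 with quantile normalization and 0.97 with the probe nearest the 3′ end, chosen after seeing the data. Between the matings the count of lower members became 1 with the array median, quantile normalization, cyclic loess and normexp. With the median over all probes, Pfkp became 1.22 and Pfkfb3 0.46 for vasectomized-mated over not mated, and Pfkp -0.35 for normal-mated over vasectomized-mated. With the probe nearest the 3′ end, Pfkp became -0.12 for normal-mated over not mated, 2.54 for vasectomized-mated over not mated and -2.66 between the matings. The split of all genes into higher and lower moved by over 10 percentage points also with normexp, to 1371 and 936 for normal-mated over not mated and 5754 and 1723 for vasectomized-mated over not mated. For normal-mated over not mated it did so with the array median, to 2387 and 1831, and with cyclic loess, to 2203 and 1965. Between the matings it did so with no filter on dim probes, to 3277 and 11120.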
